A study of Homo sapiens with 26 samples.

Results

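In 13 mice carrying ZR751 breast tumors, 80 of 30331 named genes made up a set that stood higher in tumors resistant to atirmociclib than in vehicle tumors, while 3 days of the same drug had left them near the vehicle level. The set was picked from the measurements themselves. For each mouse the log2(TPM + 1) values of its 2 libraries were averaged, where TPM is a share of all transcripts in a library, corrected for gene length and scaled to a fixed total. A gene had to reach a mean of at least 5 TPM in resistant tumors, which 10420 genes did. Its mean in sensitive tumors had to lie within 0.3 log2 units of the vehicle mean, which left 7845. Every resistant mouse had to lie above every vehicle and every sensitive mouse, which left 247 genes. The 80 members are those with the largest value of the smaller of their differences from vehicle and from sensitive tumors. Because these rules used all 3 groups, the members' own differences are described here and not tested. Tests are given for genes outside the set.

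ZR751 is a human breast cancer line of luminal type that carries the estrogen receptor. The cells were grown under the skin of female NSG mice, an immunodeficient strain that lacks mature lymphocytes but keeps myeloid cells. Dosing began at 150 mm3, and tumors were taken 3 h after the last dose. All tumors derive from this single line. Vehicle tumors (5 mice, numbered 1-2, 1-4, 1-5, 1-6 and 1-9; the treatment label reads DMSO) were taken after 3 days. Sensitive tumors (3 mice, 6-4, 6-5 and 6-6) were taken after 3 days of dosing with a CDK4 inhibitor, atirmociclib (PF-07220060), given by mouth BID at 60 mg/kg, the doses 7 h apart. Resistant tumors (5 mice, 9-3, 9-6, 9-7, 9-8 and 9-9) had received the same dose for 84 to 91 days in a separate study. That study has no vehicle mice among these samples, so length of treatment, study and resistance cannot be told apart, and the word resistant below is the label of the group. Values are listed in the order of mice given here.

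CDK4 with its partner cyclin D phosphorylates the retinoblastoma protein and lets cells enter S phase, and its inhibitors are given against breast cancers that depend on the estrogen receptor. Cells that keep growing under such drugs are studied for signals that can stand in for CDK4, among them growth factor receptors, the AP-1 transcription factors that act at the end of those pathways, and estrogen receptor activity. The members fall across those and other classes: 15 act in signalling, 8 in transcription, 8 carry ions or nutrients across membranes, 19 act in membrane traffic, in the cytoskeleton or as calcium-binding and lysosomal proteins, 7 are metabolic enzymes, 6 are secreted epithelial or immune proteins, and 17 are grouped as other, of which 3 are entries named by a sequence accession and are not named here.

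The labelled cell type was borne out by the markers: all 14 luminal epithelial markers were above 1 TPM in every mouse, with ESR1, the estrogen receptor gene, at 61.1 to 193 TPM. Of 10 fibroblast markers 9 stayed under 1 TPM in every mouse, as did 7 of 8 endothelial markers. Of 8 basal or myoepithelial markers, 4 did so. The summed level of that list was 9.75 to 28.7 TPM in vehicle, 17.9 to 35.9 in sensitive and 7.67 to 11.1 in resistant tumors. Among 10 macrophage and leukocyte markers, TYROBP and AIF1 were listed at 0 in every mouse and PTPRC reached at most 0.0150 TPM, but the summed level of the list was 5.03 to 8.53 TPM in vehicle, 7.61 to 10.4 in sensitive and 10.5 to 17.2 in resistant tumors. Of the 6 tested, CD68, LYZ and FCER1G were called higher in resistant than in vehicle tumors and CSF1R lower, the last not without mouse 1-6, 1-9, 9-3, 9-7 or 9-9 (adjusted p at most 0.0758). Gene symbols here are human and the implanted cells were all ZR751, while host leukocytes are mouse cells. LYZ is also in the list of mucosal secretion genes. Whether these levels come from tumor cells or from mouse reads was not tested. The part of host cells in the members' levels was not tested either. In bulk tumor RNA, more cells of a kind and more RNA per cell cannot be told apart. Libraries A and B of a mouse correlated across genes at 0.995 to 0.997, and the p-values below measure the spread between mice.

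Most members were already expressed in vehicle tumors. There the median member had 7.72 TPM, and 2 members, CLIC6 and PPP4R4, averaged under 1 TPM. In resistant tumors the members averaged 5.23 to 3138 TPM with a median of 21.3. The ratio of the resistant to the vehicle mean was 2.50 for the median member and reached 67.6, with 69 members at 2-fold or more, 29 at 3-fold or more, 11 at 5-fold or more and 5 at 10-fold or more. On the log2 scale the median member lay 1.21 above vehicle and 1.17 above sensitive tumors. The change from vehicle to sensitive tumors, held within 0.3 by the rule, was above 0 for 48 members and below 0 for 32.

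**Figure D1:**
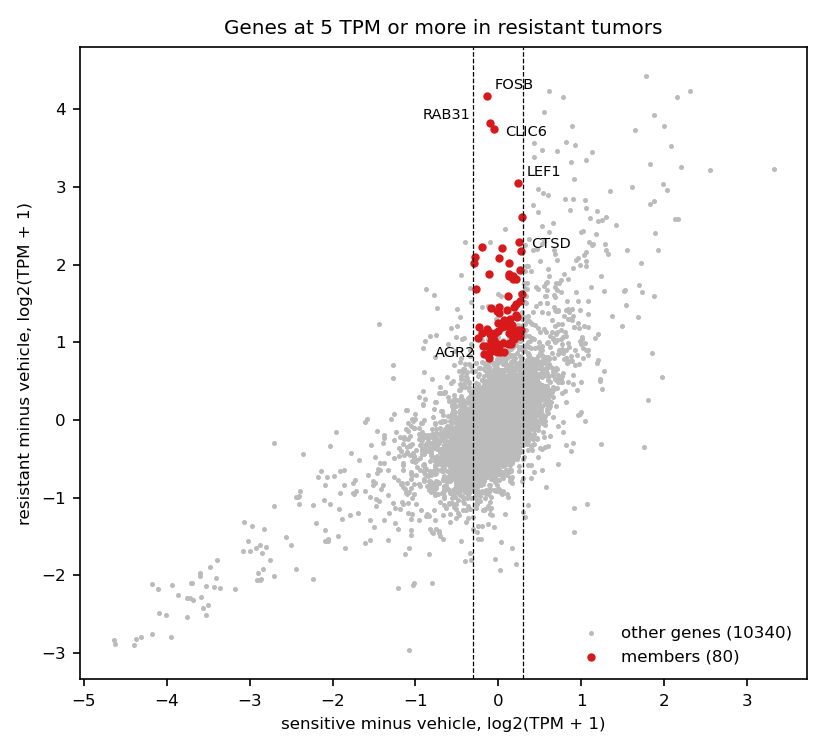
Each point is a gene with a mean of at least 5 TPM in resistant tumors. The x axis is the sensitive minus vehicle difference and the y axis the resistant minus vehicle difference, both in log2(TPM + 1), and dashed lines mark the limit of 0.3. The 80 members (red) lie in the upper part of the band between the lines, from 0.79 to 4.17 on the y axis.

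A limma model fitted to all 14079 genes with a mean of at least 1 TPM in at least 3 mice gives the background for these counts. All 80 members passed that filter. In resistant against vehicle tumors 1624 genes, 11.5% of those tested, were called higher at an adjusted p under 0.05 (Benjamini-Hochberg), and 4570, or 32.5%, lower. In resistant against sensitive tumors 1346 genes, or 9.56%, were higher and 1631, or 11.6%, lower. In sensitive against vehicle tumors 445, or 3.16%, were higher and 1767, or 12.6%, lower. Higher in resistant tumors than in both other groups were 674 genes, or 4.79%, and 516 genes, or 3.67%, had every resistant mouse above all 8 others. As a description of the selection, 80 members were called higher than vehicle and 79 higher than sensitive tumors, the exception being DNAJC22, and none was called between sensitive and vehicle tumors.

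The balance of these calls moves with the scaling. Resistant tumors had a median change over all tested genes of -0.14 against vehicle and -0.05 against sensitive tumors, and median-of-ratios scaling brought the first to -0.00. With it, 2553 genes were called higher and 2432 lower against vehicle, so that 51.2% of calls were higher in place of 26.2%. Quantile normalization gave 45.8%. Against sensitive tumors the share was 45.2%, and 56.3% after median-of-ratios scaling. Changes of genes outside the set are therefore given relative to the median of all tested genes, with the SE of the fit, and members by their TPM. The adjusted p-values belong to the fitted change, before that median is taken off.

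**Figure D2:**
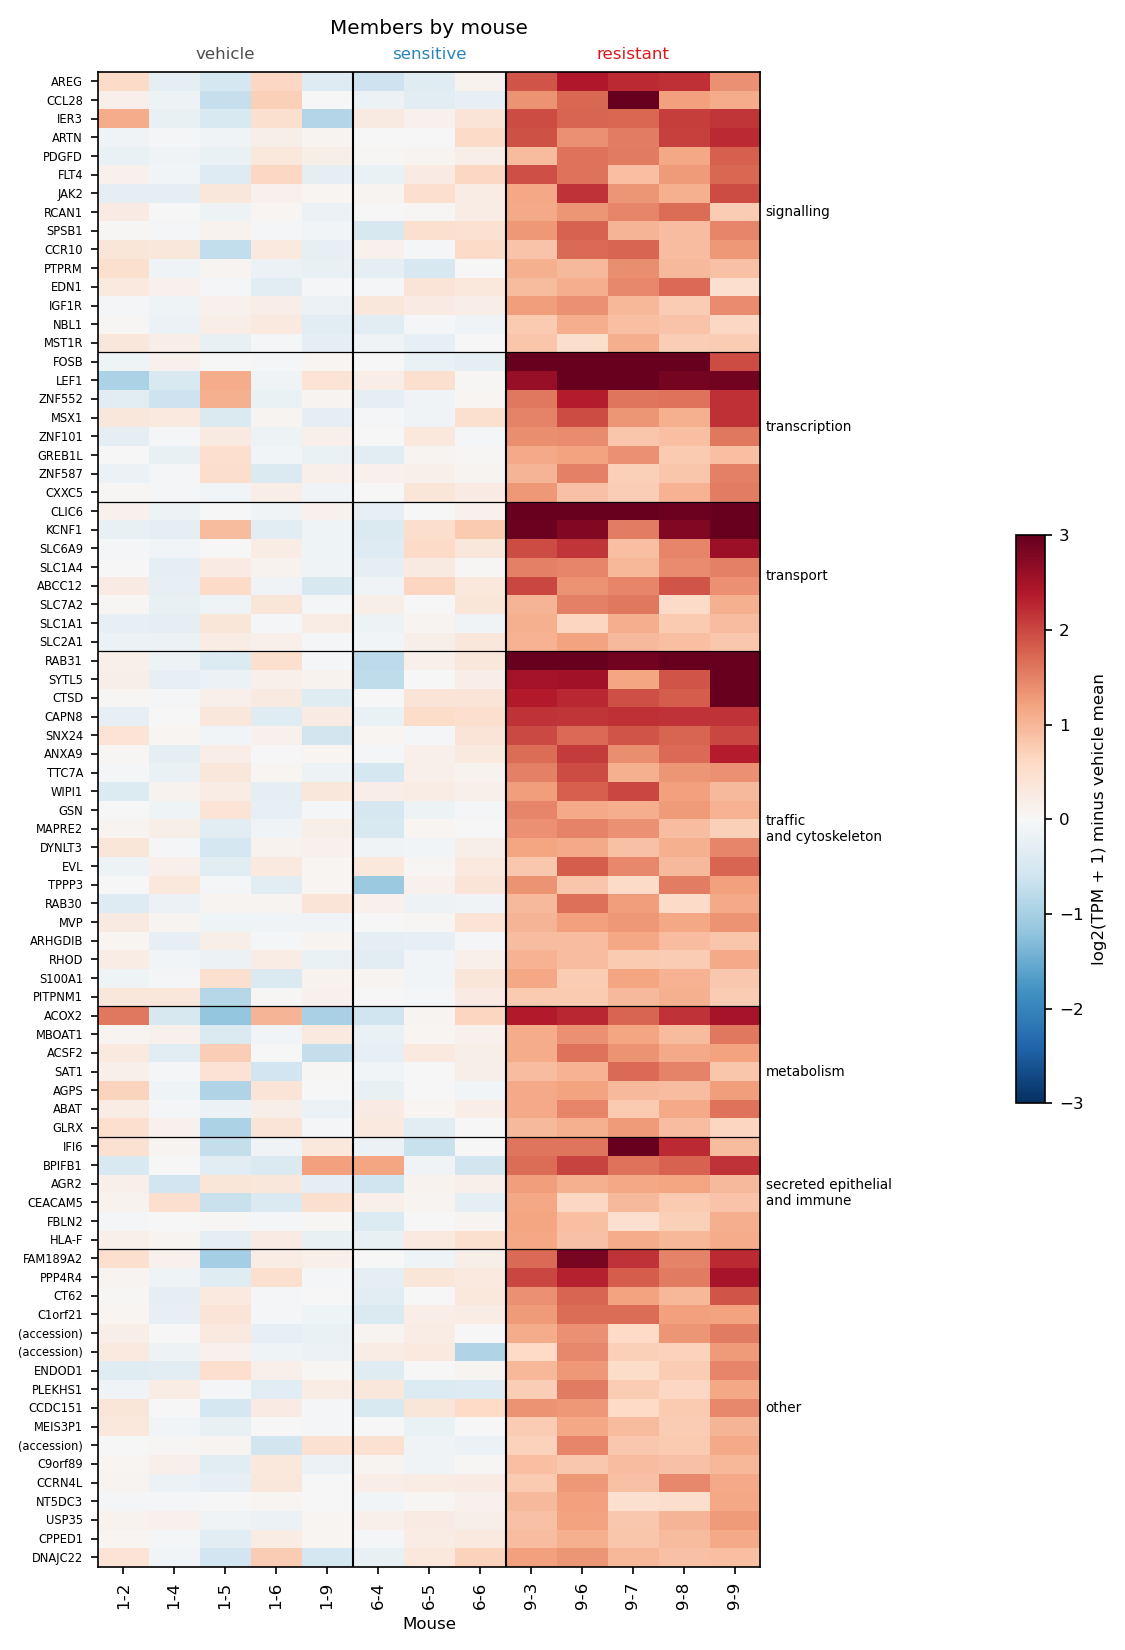
Each row is a member, grouped by class, and each column a mouse. Color is log2(TPM + 1) minus the vehicle mean, cut at 3 in either direction. The 5 resistant columns are red in every row, while the mean of the sensitive columns lies within 0.3 of the vehicle mean. Single sensitive mice depart further, such as 6-4 in TPPP3 (2.28 TPM, vehicle mean 6.19) and in BPIFB1 (54.3 TPM, vehicle mean 26.4). FOSB, RAB31 and CLIC6 differ most, and mouse 9-7 is paler than the other resistant mice in KCNF1 and SYTL5 and darker in IFI6 and CCL28.

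FOSB, a transcription factor that pairs with JUN proteins to form AP-1, ranked first. It had 0.940, 1.32, 1.09, 1.08 and 1.19 TPM in vehicle, 1.15, 0.855 and 0.755 in sensitive and 15.97, 102, 22.2, 231 and 7.26 in resistant tumors. The 8 mice without long treatment lay between 0.755 and 1.32 TPM and the resistant mice between 7.26 and 231, a 31.8-fold range within the group and the largest spread of any member (SD of log2 1.98). FOSB lies on GRCh38 chromosome 19 from 45467995 to 45475179. Across the 13 mice the 3 genes of the whole table whose log2 levels followed FOSB most closely were GEM (r = 0.966), EGR1 (r = 0.961) and NR4A1 (r = 0.952), none of them members. These mice share the division into groups, and no p is given.

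The part of the FOSB promoter next to the gene is shown because FOSB is the member with the largest difference, and those of AREG and KCNF1, described below, because they hold a cyclic AMP response element, TGACGTCA, the site bound by CREB and ATF factors. IFI6 is shown for its repeated interferon-stimulated motif. The sequences are from RefSeq on GRCh38.p14, 5′ to 3′ on the strand of the gene, end at the base before the GENCODE gene start or the RefSeq start, whichever is further upstream, and carry exact matches to TGACGTCA (AREG, KCNF1), or to GAAA repeated after any 2 bases (IFI6), in capitals; FOSB has none and is all in lower case.
FOSB: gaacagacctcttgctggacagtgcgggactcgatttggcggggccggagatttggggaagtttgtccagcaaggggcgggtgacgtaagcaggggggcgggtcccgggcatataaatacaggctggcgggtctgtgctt
AREG: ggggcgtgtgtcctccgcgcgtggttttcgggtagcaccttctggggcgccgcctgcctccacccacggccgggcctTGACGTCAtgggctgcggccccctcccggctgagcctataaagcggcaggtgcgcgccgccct
KCNF1: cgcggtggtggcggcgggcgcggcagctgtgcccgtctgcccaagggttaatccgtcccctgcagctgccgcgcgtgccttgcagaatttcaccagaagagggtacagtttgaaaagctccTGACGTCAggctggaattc
IFI6: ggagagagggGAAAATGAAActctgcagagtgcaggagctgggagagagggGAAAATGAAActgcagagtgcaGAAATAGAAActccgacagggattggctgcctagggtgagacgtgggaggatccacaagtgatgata
The FOSB window, chr19:45467855-45467994 on the plus strand, holds no exact match to TGACGTCA. The AREG window, chr4:74444994-74445133 on the plus strand, and the KCNF1 window, chr2:10911794-10911933 on the plus strand, hold one each. The IFI6 window, chr1:27672219-27672358 on the minus strand, holds 3 matches to the repeat.

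Other immediate early and AP-1 genes stood higher along with FOSB. Of 17 tested genes of the list outside the set, 13 were called higher than in vehicle tumors and none lower, beside 11.5% and 32.5% of all tested genes, with a median relative change of 0.82. Without mouse 9-6 there were 9. FOS, a close relative of FOSB, averaged 1.32 TPM in vehicle, 3.66 in sensitive and 55.7 in resistant tumors (relative log2 change against vehicle 4.30 ± 0.53, adjusted p = 5.4e-05 in limma). EGR1, a growth factor-induced zinc-finger factor, went from 1.33 to 43.2 TPM (3.93 ± 0.49, adjusted p = 6.39e-05). NR4A1, an orphan nuclear receptor induced by the same stimuli, went from 16.2 to 135 TPM (2.60 ± 0.59, adjusted p = 0.00430). JUND, a partner of FOSB in AP-1, went from 62.0 to 102 TPM (0.82 ± 0.14, adjusted p = 0.00191). Against sensitive tumors 9 of the 17 were called higher, and 5 when mouse 6-4, 6-5, 6-6 or 9-6 was left out. EGR3 did not pass that test: it averaged 29.7 TPM in sensitive and 55.3 in resistant tumors.

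**Figure D3:**
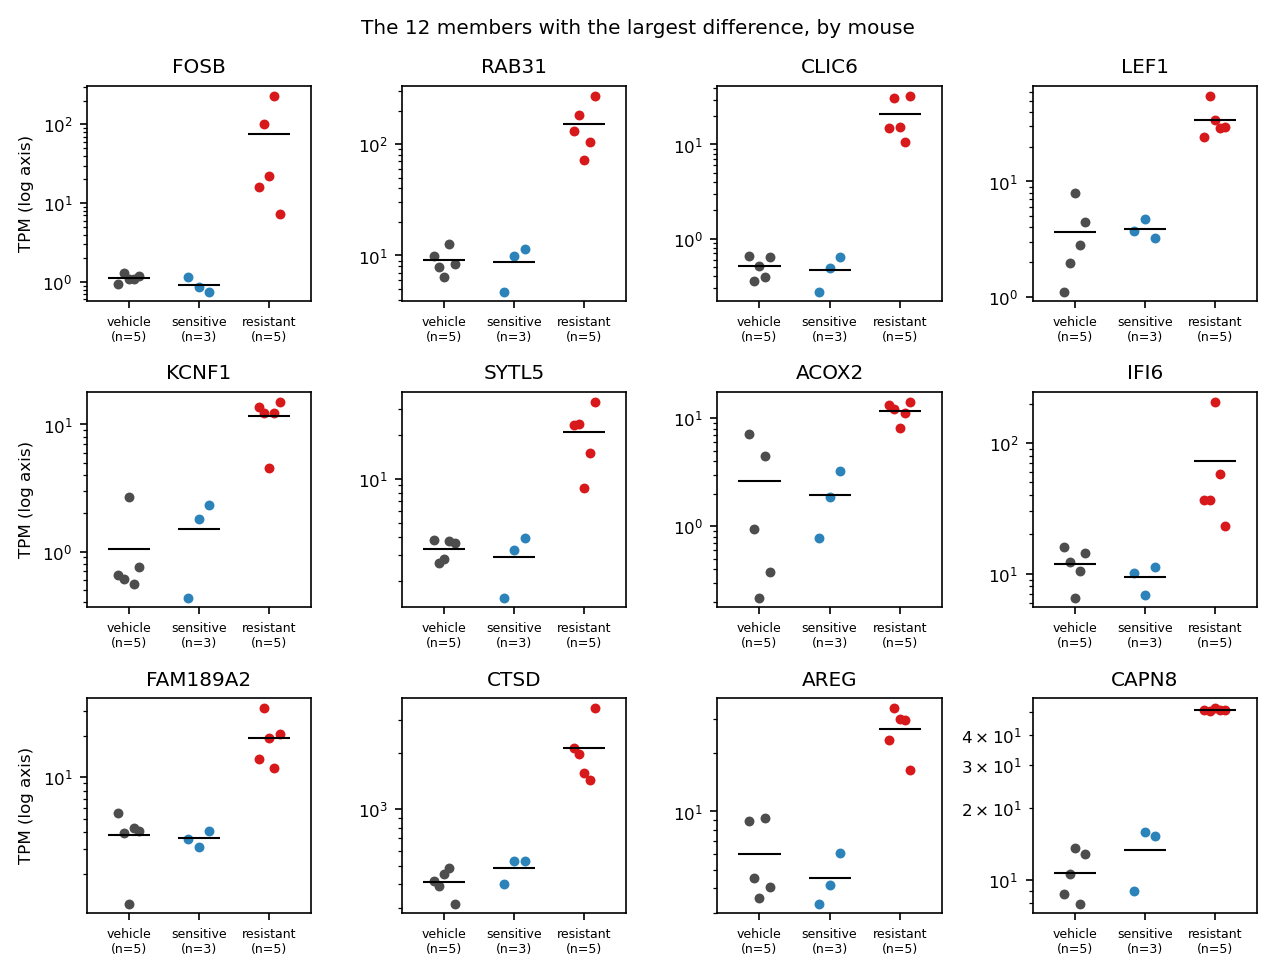
TPM on a log axis in each mouse for the 12 members that rank first, with a bar at the group mean. Vehicle mice are grey, sensitive mice blue and resistant mice red. The resistant points lie above all others in every panel, tightly for CAPN8 (50.4 to 52.1 TPM) and widely for FOSB (7.26 to 231 TPM) and IFI6 (23.3 to 208 TPM).

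LEF1, a factor through which Wnt signals reach their target genes, had 1.12, 1.98, 7.94, 2.82 and 4.47 TPM in vehicle, 3.74, 4.74 and 3.24 in sensitive and 24.1, 55.2, 34.1, 28.9 and 29.5 in resistant tumors. Vehicle mouse 1-5, at 7.94 TPM, came nearest to the lowest resistant mouse. The resistant group averaged 34.4 ± 12.1 TPM (SD, n = 5), against 3.66 ± 2.69 TPM (SD, n = 5) for vehicle. Neither of 2 tested Wnt-responsive genes was called higher. AXIN2, a scaffold protein that restrains the pathway, was not called against vehicle (9.44 and 8.47 TPM) and was called lower than in sensitive tumors, where it averaged 18.8 TPM (-1.02 ± 0.33, adjusted p = 0.0352). That call was lost when any of the 3 sensitive mice or mouse 9-3, 9-6 or 9-7 was left out, and with no filter on low values. NKD1, an inhibitor of the pathway, was called lower than vehicle (fitted change -0.44 ± 0.14, adjusted p = 0.0207; relative change -0.30), but not after median-of-ratios scaling (adjusted p = 0.0562) or without mouse 1-4, 9-6 or 9-9. It was also lower than in sensitive tumors (-0.58 ± 0.16, adjusted p = 0.0154; 0.0845 without mouse 6-4). LGR5, another such gene, stayed at or under 0.125 TPM in every mouse and was not tested. These genes, and the other receptors, ligands and relatives of members named below, were chosen after the members were known.

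The zinc-finger gene ZNF552 had 20.2, 16.4, 55.4, 22.5 and 27.5 TPM in vehicle, 20.9, 23.8 and 27.1 in sensitive and 79.5, 135, 81.1, 82.7 and 122 in resistant tumors. Mouse 1-5, at 55.4 TPM, stood above the other vehicle mice, all at or under 27.5. MSX1, a homeobox factor, averaged 5.84 ± 2.19 TPM (SD, n = 5) in resistant tumors, against 1.21 ± 0.508 TPM (SD, n = 5) for vehicle. CXXC5, a CXXC-type zinc-finger protein, was the most abundant transcription member at 145 ± 33.4 TPM (SD, n = 5), from 66.1 ± 5.94 TPM (SD, n = 5) in vehicle tumors. GREB1L, a relative of the estrogen receptor cofactor GREB1, and the zinc-finger genes ZNF101 and ZNF587 had resistant means of 8.66, 25.4 and 36.0 TPM, 2.40-fold, 2.50-fold and 2.26-fold over vehicle.

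Among secreted signals AREG, a ligand of the epidermal growth factor receptor, had 8.91, 4.55, 3.59, 9.23 and 4.06 TPM in vehicle, 3.35, 4.18 and 6.14 in sensitive and 23.4, 34.3, 30.2, 29.6 and 16.3 in resistant tumors. The resistant mean was 4.41-fold over vehicle and 5.88-fold over sensitive tumors. Its receptor EGFR was low and not called (2.17 TPM in vehicle, 1.87 in resistant), and ERBB2, a partner of that receptor, fell from 376 to 207 TPM against vehicle (-0.72 ± 0.19, adjusted p = 0.00314). Over the ERBB list 2 of 10 genes outside the set were called higher than vehicle and 4 lower. The shares over all tested genes were 11.5% and 32.5%. After median-of-ratios scaling the list had 3 and 2. Without mouse 1-4, 9-3, 9-8 or 9-9, 2 were lower.

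CCL28, a chemokine of mucosal epithelia, had 1.89, 1.31, 0.585, 3.22 and 1.55 TPM in vehicle, 1.28, 1.07 and 1.18 in sensitive and 5.57, 7.51, 19.5, 5.03 and 4.57 in resistant tumors. Mouse 9-7 stood apart at 19.5 TPM, with the other 4 resistant mice between 4.57 and 7.51. CCR10, the receptor of CCL28, is also a member, at 16.7 ± 4.97 TPM (SD, n = 5) in resistant tumors, against 6.20 ± 2.10 TPM (SD, n = 5) for vehicle. Mouse 9-7 was highest for CCR10 at 22.2 TPM, hardly above mouse 9-6 at 21.4 TPM. CCR3, the other receptor of CCL28, did not exceed 0.150 TPM.

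ARTN, a ligand of the GDNF family that signals through the kinase RET, averaged 6.75 ± 1.92 TPM (SD, n = 5) in resistant tumors, against 1.15 ± 0.184 TPM (SD, n = 5) for vehicle and 1.51 ± 0.576 TPM (SD, n = 3) for sensitive mice. RET was called higher in resistant tumors against both groups: 1.08 TPM in vehicle, 2.68 in sensitive and 14.9 in resistant tumors (2.98 ± 0.34, adjusted p = 3.04e-05 against vehicle; 2.08 ± 0.39, adjusted p = 0.00332 against sensitive). The co-receptor that ARTN prefers, GFRA3, did not exceed 0.245 TPM in any mouse. GFRA1, a co-receptor of the same family, averaged 28.4 TPM in resistant tumors and was not called against vehicle (adjusted p = 0.511), but was lower than in sensitive tumors, at 126 TPM (-2.06 ± 0.47, adjusted p = 0.00805).

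PDGFD, a ligand of the platelet-derived growth factor receptors, was at 8.15 ± 2.15 TPM (SD, n = 5) in resistant tumors, 3.42-fold over vehicle, and neither PDGFRA nor PDGFRB exceeded 0.115 TPM in any mouse. EDN1, the vasoconstrictor endothelin, was at 6.39 ± 2.31 TPM (SD, n = 5), 2.84-fold over vehicle, with its receptor EDNRA at or under 0.660 TPM. NBL1, a secreted inhibitor of bone morphogenetic proteins, was 1.81-fold over vehicle at 73.4 TPM. Gene symbols in the table are human, and receptors on cells of the host were not analysed here.

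Among receptors, IGF1R, the insulin-like growth factor receptor, averaged 29.8 ± 5.66 TPM (SD, n = 5) in resistant tumors, against 12.6 ± 1.55 TPM (SD, n = 5) for vehicle and 15.4 ± 0.817 TPM (SD, n = 3) for sensitive mice. IRS2, an adaptor that carries its signal, was called higher against vehicle (3.62 to 11.1 TPM, 1.46 ± 0.24, adjusted p = 0.000813) and against sensitive tumors (1.06 ± 0.28, adjusted p = 0.0214), the second not without mouse 6-4 or 6-5 (adjusted p at most 0.0924). IRS1, the other main adaptor, averaged 44.9 TPM in sensitive and 43.6 TPM in resistant tumors and was called against vehicle alone (1.15 ± 0.20, adjusted p = 0.00143). The ligand genes IGF1 and IGF2 were at most 0.0850 TPM and at 0. INSR, the insulin receptor, was not called (7.43 and 7.00 TPM in vehicle and resistant tumors).

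MST1R, the receptor of macrophage-stimulating protein, is the last member, with 18.5, 16.5, 12.2, 13.9 and 11.7 TPM in vehicle, 13.2, 12.01 and 14.5 in sensitive and 26.3, 21.3, 31.8, 24.5 and 25.02 in resistant tumors. The lowest resistant mouse, 9-6 at 21.3 TPM, lay close to the highest vehicle mouse, 1-2 at 18.5 TPM. MST1, the gene of its ligand, was called higher against vehicle (12.1 to 21.6 TPM, 0.93 ± 0.16, adjusted p = 0.00175), but sensitive tumors had 21.4 TPM. MST1 has near-identical pseudogenes, so its level is uncertain. FLT4, the receptor of the lymphatic growth factor VEGFC, averaged 5.68 ± 1.77 TPM (SD, n = 5) in resistant tumors, against 1.38 ± 0.706 TPM (SD, n = 5) for vehicle. VEGFC itself fell from 4.15 TPM in vehicle to 0.954 in resistant tumors (-1.23 ± 0.18, adjusted p = 8.21e-05).

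Inside the cell, JAK2, the kinase of cytokine and prolactin receptors, averaged 10.5 ± 4.09 TPM (SD, n = 5) in resistant tumors, against 2.83 ± 0.713 TPM (SD, n = 5) for vehicle, with mice 9-6 and 9-9 highest at 16.1 and 13.6 TPM. STAT3, a factor it activates, was called against vehicle (0.57 ± 0.08, adjusted p = 0.000609) and stood at the same mean, 90.6 TPM, in sensitive and resistant tumors. STAT5A was called against vehicle as well, from 3.15 to 8.80 TPM (1.41 ± 0.42, adjusted p = 0.0237). Without mouse 1-2, 1-4, 9-6 or 9-7 that adjusted p was at most 0.0631. STAT5A was not called against sensitive tumors (3.48 TPM, adjusted p = 0.184). Its more abundant relative STAT5B was called against neither group (19.1 TPM in vehicle, 19.6 in sensitive and 18.3 in resistant tumors). CISH, a feedback target of STAT5, was called lower than vehicle, at 35.1 and 24.9 TPM (fitted change -0.49 ± 0.14, adjusted p = 0.0150; relative change -0.35), but not after median-of-ratios scaling (adjusted p = 0.0775). SOCS3, a feedback target of STAT3, was not called (4.83 and 3.96 TPM).

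IER3, an immediate early gene linked to cell survival, had 64.3, 25.1, 21.02, 41.1 and 15.5 TPM in vehicle, 35.8, 32.5 and 38.8 in sensitive and 117, 101, 98.7, 127 and 133 in resistant tumors. Vehicle mouse 1-2, at 64.3 TPM, was the highest outside the resistant group. RCAN1, an inhibitor of the phosphatase calcineurin, averaged 30.7 ± 7.39 TPM (SD, n = 5) in resistant tumors, 2.58-fold over vehicle. SPSB1, which directs proteins to a ubiquitin ligase, was 2.79-fold over vehicle, and PTPRM, a receptor-type tyrosine phosphatase, 2.35-fold.

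CLIC6, of the chloride intracellular channel family, ranked behind FOSB and RAB31 and was close to silent outside the resistant group. It had 0.655, 0.355, 0.510, 0.390 and 0.640 TPM in vehicle, 0.275, 0.485 and 0.640 in sensitive and 14.9, 31.1, 15.4, 10.6 and 32.9 in resistant tumors, on chromosome 21 from 34669389 to 34718227. Its resistant mean was 41.1-fold over vehicle and 44.9-fold over sensitive tumors, and no mouse without long treatment reached 1 TPM. KCNF1, a subunit that modifies voltage-gated potassium channels, had 0.655, 0.605, 2.71, 0.555 and 0.760 TPM in vehicle, 0.435, 1.80 and 2.31 in sensitive and 13.8, 12.2, 4.59, 12.3 and 15.1 in resistant tumors. Vehicle mouse 1-5 was above the other vehicle mice at 2.71 TPM and mouse 9-7 below the other resistant mice at 4.59 TPM.

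The solute carriers among the members mostly move amino acids. SLC6A9, a glycine transporter, had 4.02, 3.86, 4.20, 4.99 and 3.70 TPM in vehicle, 2.92, 6.70 and 5.54 in sensitive and 18.8, 21.6, 8.60, 13.3 and 29.4 in resistant tumors. SLC1A4, which exchanges serine, alanine and other neutral amino acids, had 69.3, 56.6, 81.9, 74.5 and 63.6 TPM in vehicle, 57.00, 83.2 and 70.3 in sensitive and 198, 192, 139, 184 and 196 in resistant tumors. It was the most abundant transporter of the set, 2.63-fold over vehicle, and mouse 9-7 was lowest at 139 TPM against 184 or more in the other 4. SLC1A5, its relative that carries glutamine, was called against sensitive tumors (301 to 397 TPM, 0.44 ± 0.10, adjusted p = 0.0124; adjusted p = 0.0612 without mouse 6-5), but not against vehicle (366 TPM). SLC7A2, a carrier of arginine and lysine, and SLC1A1, a carrier of glutamate, were 2.30-fold and 2.00-fold over vehicle.

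SLC2A1, the glucose transporter that cells induce under low oxygen, had 48.3, 48.2, 63.9, 60.6 and 52.6 TPM in vehicle, 51.5, 61.8 and 68.7 in sensitive and 113, 127, 107, 103 and 96.2 in resistant tumors. Of 21 other tested genes of the hypoxia and glycolysis list, 1 was called higher and 7 lower against vehicle. Beside them, 11.5% of all tested genes were called higher and 32.5% lower. After median-of-ratios scaling the list had 3 and 2. Without mouse 9-6 or 9-9, 4 were lower. Against sensitive tumors 1 of the 21 was higher and 7 lower, beside 9.56% and 11.6% of all tested genes. Without sensitive mouse 6-4, 13 of the list were lower. ABCC12, of the multidrug resistance protein family, averaged 5.56 ± 1.41 TPM (SD, n = 5) in resistant tumors, against 1.18 ± 0.650 TPM (SD, n = 5) for vehicle. In the list of drug transport and metabolism genes, which does not hold ABCC12, 5 of 14 were called higher than vehicle and 4 lower.

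RAB31, a small GTPase of vesicle traffic, ranked second. It had 9.895, 7.91, 6.35, 12.7 and 8.47 TPM in vehicle, 4.74, 9.86 and 11.4 in sensitive and 131, 183, 72.3, 105 and 272 in resistant tumors, on chromosome 18 from 9708165 to 9862551. The lowest resistant mouse, at 72.3 TPM, was far above the highest of the others, at 12.7 TPM, and the resistant mean was 16.9-fold over vehicle. SYTL5, an effector that ties Rab GTPases to membranes, had 3.82, 2.63, 2.81, 3.74 and 3.62 TPM in vehicle, 1.54, 3.25 and 3.93 in sensitive and 23.3, 23.6, 8.67, 14.9 and 33.6 in resistant tumors. Mouse 9-7 was lowest at 8.67 TPM and mouse 9-9 highest at 33.6 TPM, as they were for RAB31. RAB30, a Golgi GTPase, SNX24, a sorting nexin, and WIPI1, which binds lipids of the forming autophagosome, were 2.32-fold, 4.78-fold and 2.94-fold over vehicle. SNX24 had 3.12, 2.20, 1.93, 2.39 and 1.12 TPM in vehicle, 2.21, 1.94 and 3.05 in sensitive and 11.2, 9.08, 10.4, 9.29 and 11.4 in resistant tumors.

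CTSD, the lysosomal protease cathepsin D and a classic estrogen-induced gene, had 416, 389, 453, 489 and 315 TPM in vehicle, 402, 533 and 534 in sensitive and 2118, 1977, 1568, 1429 and 3469 in resistant tumors. With a resistant mean of 2112 ± 809.5 TPM (SD, n = 5) it was the second most abundant member. PSAP, which encodes the saposins, was called against vehicle (418 to 511 TPM, 0.43 ± 0.07, adjusted p = 0.00563). Against sensitive tumors, at 455 TPM, it was not called (adjusted p = 0.186). CTSB, another cathepsin, was called lower (167 to 150 TPM, adjusted p = 0.0364), but its relative change was -0.01 ± 0.05 and it was not called after median-of-ratios scaling (adjusted p = 0.977). Of 24 lysosomal genes outside the set 6 were called higher and 2 lower against vehicle, beside 11.5% and 32.5% of all tested genes. After median-of-ratios scaling the list had 13 and 0.

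CAPN8, a calpain protease of mucosal epithelium, had 8.75, 10.6, 13.6, 7.99 and 12.8 TPM in vehicle, 9.03, 15.8 and 15.3 in sensitive and 51.04, 50.4, 52.1, 51.1 and 51.1 in resistant tumors. Its SD among resistant mice was 0.02 on the log2 scale, the smallest of all members, against 0.31 among vehicle mice. CAPN9, which forms a complex with CAPN8 in the stomach, was called higher against vehicle (55.1 to 82.6 TPM, 0.70 ± 0.11, adjusted p = 0.00132) and against sensitive tumors (0.78 ± 0.13, adjusted p = 0.00209). ANXA9, of the annexin family, had 22.7, 17.9, 25.5, 22.5 and 23.05 TPM in vehicle, 21.1, 24.9 and 27.5 in sensitive and 73.1, 98.3, 59.5, 74.5 and 118 in resistant tumors.

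Among members of the cytoskeleton and its control, ARHGDIB had 273, 221, 297, 256 and 279 TPM in vehicle, 219, 224 and 256 in sensitive and 504, 502, 588, 505 and 467 in resistant tumors. RHOD, a small GTPase, had 129.7, 104, 98.3, 130.2 and 96.1 TPM in vehicle, 88.9, 105 and 124 in sensitive and 231, 211, 191, 189.7 and 245 in resistant tumors. Their resistant means were 1.93-fold and 1.91-fold over vehicle. GSN, the actin-severing protein gelsolin, EVL, an actin assembly factor, and MVP, the main protein of vault particles, averaged 116, 93.4 and 67.3 TPM in resistant tumors, 2.31-fold, 2.67-fold and 2.35-fold over vehicle. S100A1, a calcium-binding protein, had 6.55, 6.98, 10.5, 5.15 and 7.95 TPM in vehicle, 7.67, 6.80 and 9.61 in sensitive and 17.3, 12.9, 17.7, 16.1 and 13.5 in resistant tumors. Of 12 other tested S100 genes 3 were called higher and 4 lower than vehicle, beside 11.5% and 32.5% of all tested genes. MAPRE2, which binds microtubule ends, DYNLT3, a dynein light chain, and TPPP3, which promotes tubulin polymerization, were 2.56-fold, 2.26-fold and 2.39-fold over vehicle. TTC7A, a scaffold of a membrane lipid kinase, and PITPNM1, a phosphatidylinositol transfer protein, were 3.08-fold and 1.80-fold.

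Among the 7 enzymes, ACOX2, a peroxisomal oxidase of branched fatty acids and bile acid intermediates, had 7.12, 0.950, 0.220, 4.51 and 0.375 TPM in vehicle, 0.785, 1.86 and 3.26 in sensitive and 13.1, 12.1, 8.08, 11.1 and 14.1 in resistant tumors. Its vehicle mice were spread from 0.220 to 7.12 TPM, and the lowest resistant mouse, 9-7 at 8.08 TPM, lay just above them. AGPS, a peroxisomal enzyme of ether lipid synthesis, ACSF2, an acyl-CoA synthetase, and MBOAT1, a lysophospholipid acyltransferase, were 2.26-fold, 2.37-fold and 3.00-fold over vehicle. The list of neutral lipid and fatty acid enzymes, which holds none of them, had 3 of 21 genes higher and 8 lower than vehicle. The shares over all tested genes were 11.5% and 32.5%. SAT1, which breaks down polyamines, averaged 148 ± 39.7 TPM (SD, n = 5) in resistant tumors, 2.33-fold over vehicle, ABAT, which breaks down the transmitter GABA, 132 ± 30.2 TPM (SD, n = 5), 2.40-fold, and GLRX, a glutaredoxin, 22.6 ± 3.76 TPM (SD, n = 5), 1.96-fold.

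AGR2, a disulfide isomerase of secretory epithelium, was the most abundant member. It had 1593, 952, 1836, 1794 and 1190 TPM in vehicle, 939.7, 1534 and 1594 in sensitive and 3410, 2992, 3210, 3270 and 2805 in resistant tumors. Its relative AGR3 is no member because sensitive tumors were already higher, and was called against both groups, at 45.1 TPM in vehicle, 95.3 in sensitive and 421 in resistant tumors (3.48 ± 0.36, adjusted p = 1.4e-05 against vehicle; 2.32 ± 0.41, adjusted p = 0.00255 against sensitive). Of 13 tested mucosal secretion genes outside the set 10 were called higher than vehicle and none lower, with a median relative change of 2.19. These counts stand beside 11.5% and 32.5% of all tested genes. TFF2, a trefoil peptide of mucus, went from 0.729 to 32.9 TPM (4.37 ± 0.37, adjusted p = 2.5e-06) and MUC1, a membrane mucin, from 689 to 2439 TPM (2.01 ± 0.22, adjusted p = 2.67e-05). Against sensitive tumors 7 of 13 were higher and 1 lower, a call lost without mouse 6-4, 6-5, 9-6 or 9-9.

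BPIFB1, a secreted defence protein of airway and mouth epithelium, had 16.8, 23.4, 18.4, 17.2 and 56.4 TPM in vehicle, 54.3, 21.8 and 15.6 in sensitive and 76.8, 98.6, 75.03, 82.9 and 109 in resistant tumors. Vehicle mouse 1-9 and sensitive mouse 6-4, at 56.4 and 54.3 TPM, were well above the others of their groups. CEACAM5, the carcinoembryonic antigen, averaged 21.1 ± 3.19 TPM (SD, n = 5), 1.83-fold over vehicle, and FBLN2, a matrix protein, 19.3 ± 3.73 TPM (SD, n = 5), 1.95-fold.

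IFI6, a mitochondrial protein induced by interferon, had 16.1, 12.2, 6.56, 10.5 and 14.4 TPM in vehicle, 10.1, 6.84 and 11.3 in sensitive and 36.7, 36.9, 208, 57.9 and 23.3 in resistant tumors. Mouse 9-7 at 208 TPM was 8.91-fold above mouse 9-9, and without it the other 4 resistant mice lay between 23.3 and 57.9 TPM, still above all other mice. Of 19 tested interferon response genes outside the set 5 were called higher than vehicle and none lower, and 3 when mouse 9-7 or mouse 1-4 was left out. Without mouse 9-7, 3 were called lower. Beside 11.5% of all tested genes, the fit with all mice called 5 of the 19 higher. These were ISG15, a ubiquitin-like modifier (1.35 ± 0.39, adjusted p = 0.0223; at most 0.0566 without mouse 1-4 or 9-8), IFIT1 (1.67 ± 0.42, adjusted p = 0.00945) and IFIT2 (0.59 ± 0.12, adjusted p = 0.00765), which bind viral RNA, SAMD9 (0.85 ± 0.14, adjusted p = 0.00104) and DDX58, the RNA sensor RIG-I (0.47 ± 0.12, adjusted p = 0.0325; at most 0.0663 without mouse 1-2, 1-4, 1-6 or 9-7). STAT2, which carries the interferon signal, was not called (30.9 and 28.5 TPM in vehicle and resistant tumors).

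HLA-F, a class I histocompatibility gene outside the classical set, had 11.9, 11.4, 8.63, 12.8 and 8.99 TPM in vehicle, 8.93, 13.2 and 15.2 in sensitive and 24.9, 20.4, 24.1, 22.1 and 24.1 in resistant tumors. Class I genes are near copies of each other, so part of their reads may be shared between them. Of 15 presentation genes outside the set 2 were called higher and 2 lower against vehicle, beside 11.5% and 32.5% of all tested genes. Median-of-ratios scaling gave 8 and 1 and quantile normalization 6 and 1. B2M, the common light chain, was called higher against vehicle (313 to 399 TPM, 0.48 ± 0.10, adjusted p = 0.0121) and against sensitive tumors (199 TPM; 1.04 ± 0.11, adjusted p = 0.000176).

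Of the remaining named members, FAM189A2 (now ENTREP1), a membrane adaptor of ubiquitin ligases, had 5.47, 3.96, 1.22, 4.29 and 4.07 TPM in vehicle, 3.59, 3.15 and 4.11 in sensitive and 13.6, 31.7, 19.3, 11.6 and 20.5 in resistant tumors. PPP4R4, a regulatory subunit of a phosphatase, had 0.580, 0.360, 0.150, 1.07 and 0.430 TPM in vehicle, 0.225, 0.925 and 0.835 in sensitive and 4.94, 6.34, 4.23, 3.41 and 7.26 in resistant tumors. It had the lowest mean of the set in resistant tumors, yet a 10.1-fold ratio to vehicle. C9orf89 (now CARD19), which carries a caspase recruitment domain, was even among resistant mice. It had 37.1, 39.2, 27.8, 44.1 and 31.3 TPM in vehicle, 37.7, 32.9 and 36.5 in sensitive and 67.6, 63.2, 68.4, 66.2 and 71.9 in resistant tumors. DNAJC22, of the DnaJ chaperone family, had 9.68, 6.70, 4.46, 12.7 and 4.61 TPM in vehicle, 5.91, 9.10 and 11.98 in sensitive and 18.1, 19.3, 15.2, 13.8 and 14.1 in resistant tumors, and vehicle mouse 1-6, at 12.7 TPM, lay close to resistant mouse 9-8, at 13.8 TPM. CT62, C1orf21, ENDOD1, PLEKHS1, CCDC151 (now ODAD3), CCRN4L (now NOCT), NT5DC3, USP35, CPPED1 and MEIS3P1 had resistant means of 6.16 to 49.6 TPM, and the 3 entries named by an accession 9.81 to 21.6 TPM. MEIS3P1 is annotated as a pseudogene, and its reads may in part belong to its parent gene.

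Resistant mice did not hold the members at one level. The SD of log2 values among resistant mice had a median of 0.33 over the members, against 0.13 over all genes at 5 TPM or more. Among vehicle mice it was 0.27 against 0.16. In 43 of the 80 members, and in 38.7% of all genes at 5 TPM or more, the SD was larger among resistant than vehicle mice. The rule chose the members on these same values, so the comparison with all genes is a description only. By members ranked within the group, mouse 9-9 was highest in 31 and lowest in 18, 9-6 highest in 21 and lowest in 10, 9-7 highest in 14 and lowest in 24, 9-3 highest in 8 and lowest in 11, and 9-8 highest in 6 and lowest in 17. Mice 9-9 and 9-7 often took opposite ends. In 17 members 9-9 was highest and 9-7 lowest, among them RAB31, KCNF1, SYTL5, ACOX2, ANXA9, BPIFB1, IER3, SLC6A9 and DYNLT3. In 7 members 9-7 was highest and 9-9 lowest: IFI6, CCL28, WIPI1, SAT1, PTPRM, GLRX and ARHGDIB. FOSB, RCAN1, EDN1 and PITPNM1 were highest in 9-8 and lowest in 9-9. The 5 mice have no order, and these splits are descriptions.

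CTSD, AREG and AGR2 belong to the list of 30 estrogen receptor targets, in which many other genes stood higher as well. Of the 27 outside the set 23 were called higher than vehicle and 1, the chaperone FKBP4, lower (adjusted p = 0.00961; 0.0516 after median-of-ratios scaling), with a median relative change of 1.78. TFF1, the best known of these targets, went from 988 to 12018 TPM (4.29 ± 0.56, adjusted p = 8.39e-05), PGR, the progesterone receptor, from 22.5 to 104 TPM (2.32 ± 0.33, adjusted p = 0.000188) and GREB1 from 76.8 to 243 TPM (1.78 ± 0.21, adjusted p = 6.05e-05). Of these 27, 9 were already called higher in sensitive than in vehicle tumors, where 3.16% of all genes were, and 2 without mouse 6-5 or 6-6. CA12, a carbonic anhydrase, was above the sensitive level by 1.21 ± 0.18 (adjusted p = 0.00105) and SIAH2, a ubiquitin ligase, by 1.27 ± 0.21 (adjusted p = 0.00188). In all 12 of the 27 were called higher than in sensitive tumors, beside 9.56% of all tested genes, and 4 without sensitive mouse 6-4. TFF1 and TFF3 are also counted in the mucosal secretion list, and EGR3 in the immediate early list.

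The other lists gave the following counts of genes outside the set, higher and lower than vehicle. They stand beside 11.5% and 32.5% of all tested genes, and 9.56% and 11.6% against sensitive tumors. ERK pathway feedback had 5 and 2 of 13, NF-kB response 5 and 3 of 13 (3 higher without mouse 9-7), and the unfolded protein response 6 and 0 of 20. Keratins had 3 and 5 of 15 (3 lower without mouse 1-4, 1-6 or 9-9), BMP and TGF-beta signalling 6 and 8 of 18, and the Notch pathway 3 and 4 of 14. Luminal markers had 2 and 4 of 14, and 5 and 2 after median-of-ratios scaling (4 higher without mouse 1-5), and basal markers 0 and 3 of 4. All 24 mitosis genes were lower than in vehicle tumors, and 22 of them were higher than in sensitive tumors. In the CDK, cyclin and RB list 1 of 21 was higher and 15 lower than vehicle, and 8 were higher and 3 lower than in sensitive tumors (5 higher without mouse 6-5, and none lower without mouse 6-4 or 9-6). The lists for fibroblasts and endothelium had 1 tested gene each, and neither was called, though the fibroblast gene was called lower without mouse 9-7.

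**Figure D4:**
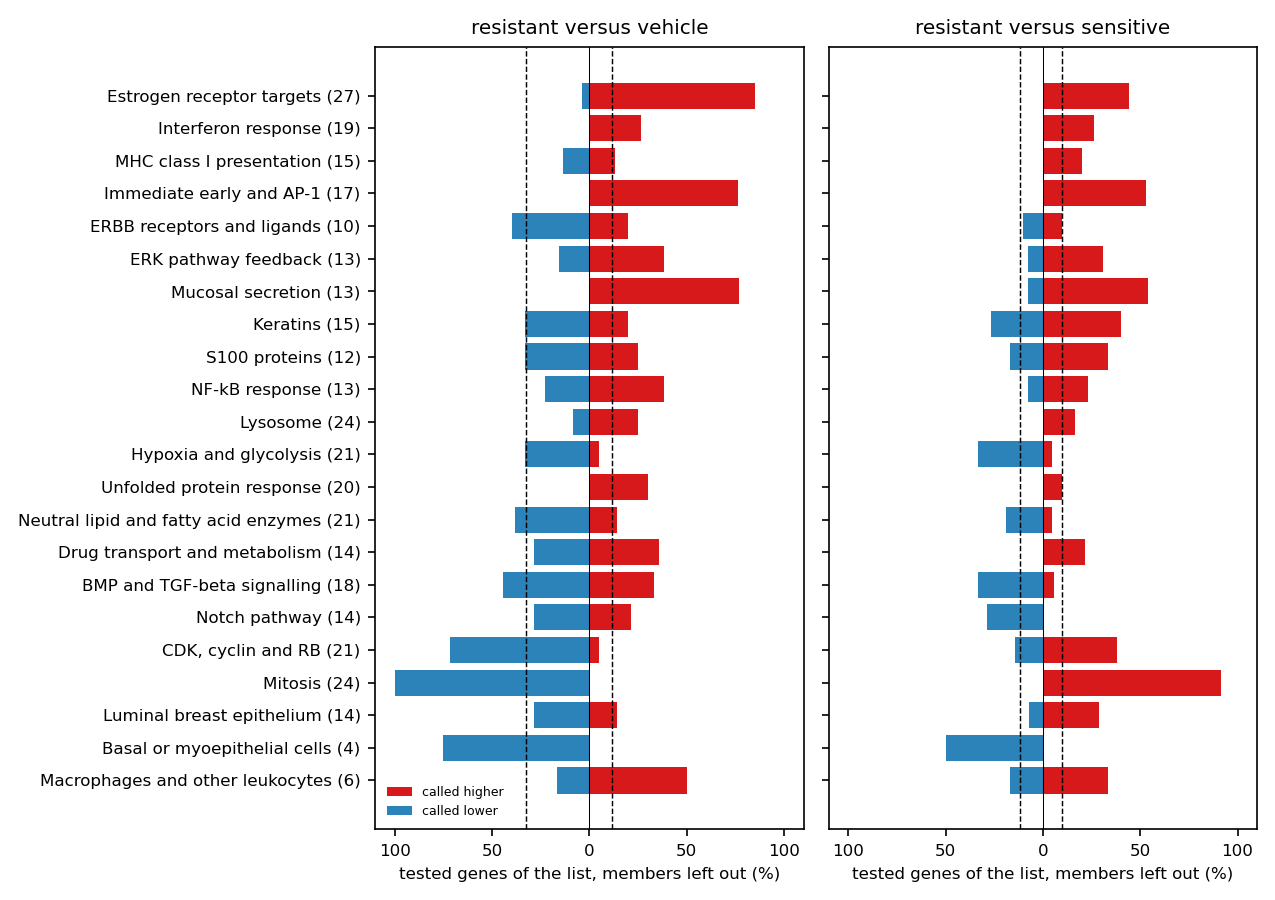
Share of each list's tested genes called higher (red, to the right) or lower (blue, to the left) in resistant tumors, with members left out and the number tested in brackets. Dashed lines give the shares of all tested genes (11.5% higher and 32.5% lower against vehicle, 9.56% and 11.6% against sensitive). Estrogen receptor targets, immediate early genes and mucosal secretion extend furthest to the right against vehicle, and mitosis genes furthest to the left. Lists share genes, among them TFF1 and TFF3 (estrogen receptor targets and mucosal secretion) and EGR3 (estrogen receptor targets and immediate early genes).

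On the genome 77 members could be placed (GENCODE 29, GRCh38), on every chromosome but 13, 22 and Y, 10 of them on chromosome 1 and 7 on chromosome 11. These made up 0.940% and 1.17% of the genes that reach 5 TPM there. The shares were 2.76% on chromosome 18 (4 of 145 genes) and 2.11% on chromosome 21 (2 of 95 genes). The whole set is 80 of 10420 such genes. The 2 highest shares rest on few genes, and no test was made. Some members were close neighbours. CLIC6 and RCAN1 lie 54.2 kb apart on chromosome 21 with no tested gene between them. On the other side of CLIC6, 69.6 kb away, lies RUNX1, a transcription factor of blood and breast epithelium that ranked 83 among the candidates and so fell just outside the set. It averaged 24.4 TPM in vehicle, 28.7 in sensitive and 51.5 in resistant tumors, and was called against both (1.15 ± 0.15, adjusted p = 0.000153; 0.83 ± 0.17, adjusted p = 0.00668). The tested gene nearest to CLIC6, LINC00160 at 5.58 kb, was not called against vehicle (0.68 ± 0.23, adjusted p = 0.0694 in limma). Beyond RCAN1, KCNE2, MRPS6 and SLC5A3 lie 298, 526 and 563 kb from CLIC6. They were called lower than vehicle, KCNE2 narrowly (-0.45 ± 0.22, adjusted p = 0.0441), MRPS6 (-0.30 ± 0.07, adjusted p = 0.000257) and SLC5A3 (-0.42 ± 0.12, adjusted p = 0.00200). The raised genes thus did not extend over the whole region.

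SYTL5 and DYNLT3 lie 159 kb apart on the X chromosome with no tested gene between them, and the nearest other tested gene, RPGR, was not called. ARTN and SLC6A9 lie 54.3 kb apart on chromosome 1, with 4 tested genes between them, and SLC2A1 lies 974 kb from ARTN. ZNF552 and ZNF587 lie 34.9 kb apart in a cluster of zinc-finger genes on chromosome 19, in which ZNF586 (0.62 ± 0.14, adjusted p = 0.0137), ZNF587B (1.05 ± 0.15, adjusted p = 0.000411) and ZNF814 (1.07 ± 0.15, adjusted p = 0.000287) were also called higher than vehicle. Genes of this cluster resemble each other, so reads may have been shared between them. JAK2 and SLC1A1 lie 397 kb apart on chromosome 9 and RHOD and PITPNM1 420 kb apart on chromosome 11. Within 1 Mb of CTSD, also on chromosome 11, 9 of 28 tested genes outside the set were called higher than vehicle and 2 lower. The nearest, IFITM10 at 2.16 kb, went from 1.23 to 24.7 TPM (3.61 ± 0.31, adjusted p = 2.77e-06). Like CTSD, IFITM10 was highest in mouse 9-9 (45.9 TPM) and lowest among resistant mice in 9-8 (15.1 TPM). Whether it shared reads with the far more abundant CTSD was not tested. SYT8, of the synaptotagmin family, and TNNI2, a troponin subunit, at 63.7 and 74.4 kb, changed by 3.72 ± 0.37 (adjusted p = 1.06e-05) and 2.55 ± 0.24 (adjusted p = 7.69e-06). In sensitive tumors IFITM10, SYT8 and TNNI2 already stood 0.53, 0.82 and 0.62 above vehicle (log2), beyond the limit of the rule. The mucin genes MUC5B, MUC5AC and MUC2, 491 to 642 kb away, were also among the 9. MUC5AC was called against sensitive tumors too (adjusted p = 0.0380 in limma), but MUC5B and MUC2 were not (adjusted p = 0.130 and 0.495). MUC5B averaged 23.8, 74.3 and 146 TPM in vehicle, sensitive and resistant tumors, and MUC2 1.30, 8.55 and 12.9 TPM. Mucin genes hold repeats, so reads may have been shared between them.

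**Figure D5:**
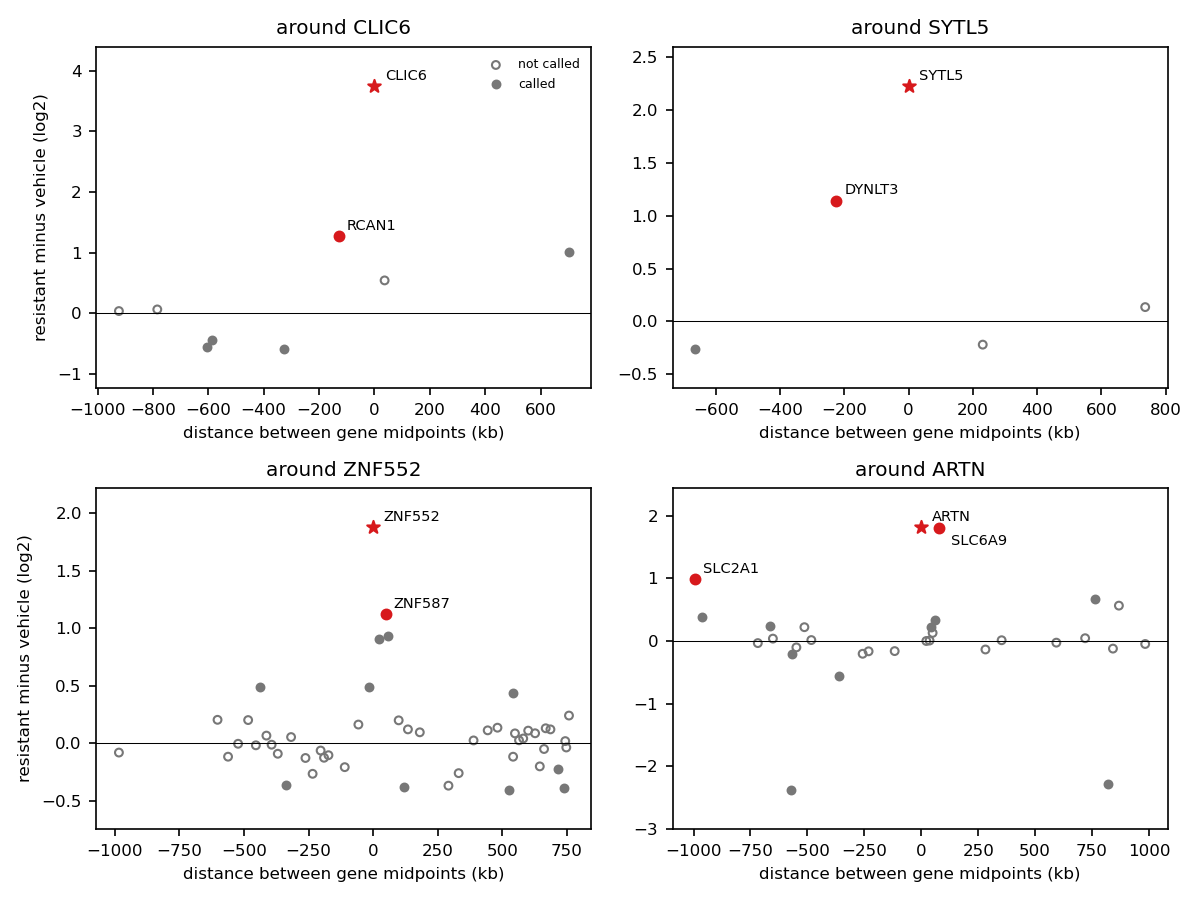
Fitted resistant minus vehicle change (log2) of tested genes within 1 Mb of 4 members, by distance between gene midpoints in kb. The star is the member named above each panel, red points are other members, filled grey points are other genes called at an adjusted p under 0.05 and open points are not called. Around CLIC6 the raised genes are RCAN1 and RUNX1, and around SYTL5 the only raised gene is DYNLT3. Around ZNF552 there is a run of raised zinc-finger genes, and further off ZNF547 (0.49) and A1BG (0.44) were also called higher.

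Over all placed members, 1326 tested genes that are no members lie within 1 Mb, and 13.7% of them were called higher than vehicle and 31.8% lower, beside 11.5% and 32.5% of all tested genes. Within 0.25 Mb there were 466, with 19.1% higher and 30.0% lower. The 24 that overlap a member had 11 called higher, and reads of overlapping genes cannot be told apart where the counting ignores strand; the sources used here do not say. Without them 17.6% of 442 were higher. Against sensitive tumors the shares were 10.9% within 1 Mb and 16.1% within 0.25 Mb, beside 9.56% of all tested genes. Neighbouring genes are not independent of each other, and these shares are given with no test.

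RefSeq promoters, from 250 bases before to 50 after the start, were found for 63 members and searched on both strands, with 10485 promoters of tested genes as reference. The cyclic AMP element TGACGTCA was in 3 member promoters (KCNF1, AREG and MAPRE2), or 4.76%, and in 3.28% of the reference. The AP-1 motif TGANTCA was in 2, CAPN8 and SYTL5, or 3.17%, beside 4.44%. The interferon-stimulated motif, GAAA repeated after any 2 bases, was in 3, IFI6, HLA-F and MVP, or 4.76%, beside 2.64%. The hypoxia motif ACGTG was in 15, or 23.8%, beside 26.8%, and the E-box CACGTG, which contains ACGTG, in 8, or 12.7%, beside 10.4%. The estrogen response element, searched as GGTCA and TGACC with any 3 bases between them, was in none, and in 1 of the 10485. With 63 promoters these shares lie close to the reference, and an absent match says only that these letters are not in the window.

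The border of the set is a matter of small differences. MST1R, the last member, had 0.79 for its smaller difference, and the first gene left out, BMPR1B, a receptor of bone morphogenetic proteins, had 0.79 as well, with 4.33, 3.27, 3.91, 4.82 and 3.72 TPM in vehicle, 3.73, 4.07 and 5.02 in sensitive and 8.29, 9.48, 9.895, 5.90 and 7.32 in resistant tumors. CRIM1, next in rank, also had 0.79 and 12.4, 11.2, 12.2, 10.5 and 14.6 TPM in vehicle, 11.4, 12.4 and 13.6 in sensitive and 21.6, 25.6, 24.8, 18.7 and 20.9 in resistant tumors. On the other limit, KCNF1 and AREG were kept with sensitive minus vehicle differences of 0.29 and -0.29, and KCNH1 and CDK14, which otherwise met the rule, were left out at 0.31 each.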

How the data were processed

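RNA was sequenced from 13 xenograft tumors in 26 libraries, A and B for each mouse; the labels do not say at which step A and B part. The authors deposited 1 table of TPM. Per the submitters' processing notes, FastQC, STAR, HTSeq, RSEM, GRCh38 and GRCm38 were used; their roles and versions, and how mouse reads were set aside, are not stated in the sources used here. TPM keeps no depth, so counting error is unknown.

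Of 30332 entries, 30331 carried a gene name. Log2(TPM + 1) was averaged over the libraries of a mouse, and 14079 genes with a mean of at least 1 TPM in at least 3 mice were fitted in limma 3.58.1 (trend option, R 4.3.3) over 3 groups, two-sided, with Benjamini-Hochberg adjustment. A log2 change understates that of low genes. Tables were made with Python 3.11.15, pandas 2.3.3 and numpy 2.4.6.

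The members and the 24 gene lists were chosen with earlier results of these data known. Values per mouse are given for the 20 members that rank first, the 5 with the highest level, those in a list, the 3 with the largest and the 3 with the smallest spread among resistant mice, and both sides of the last rank; other list genes, receptors, ligands and neighbours were picked after their values were seen. Alternatives changed the pseudocount, low-value filter, scaling, library handling, mice, rule limits and neighbour distance.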

Additional observations from a re-analysis of the deposited data

Results flagged for a closer look

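In the 30 members whose values are given per mouse, 60 groups of 5 mice were examined for a mouse whose gap to its nearest neighbour took up more than 0.71 of the range of the group. Such a gap was found in 7 of them. Chance gives about 1 in 20 for independent groups, but these groups share their mice, hold values that the rule used and include members picked for their spread, so that rate is no measure for the 7. Mouse 9-7 accounts for 4: it was the highest resistant mouse for IFI6 at 208 TPM and for CCL28 at 19.5 TPM, and the lowest for KCNF1 at 4.59 TPM and for SLC1A4 at 139 TPM. Vehicle mouse 1-5 was highest of its group for ZNF552 at 55.4 TPM and for KCNF1 at 2.71 TPM. Vehicle mouse 1-9 was highest of its group for BPIFB1 at 56.4 TPM.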

How the results depend on the processing

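Under 23 other settings of the rule, 54 to 77 of the 80 members were kept, and 19 were kept under all of them. Of the 20 members that rank first, 6 were kept under all. LEF1, KCNF1, CTSD, CAPN8 and IER3 left the set under median-of-ratios scaling and under quantile normalization. RAB31, LEF1, SYTL5, IFI6, AREG and BPIFB1 left it without mouse 6-6. A member can leave by any limit of the rule or by its rank. The rule found 487 candidates after median-of-ratios scaling and 424 after quantile normalization, in place of 247. Against vehicle, median-of-ratios scaling gave 2553 genes called higher and 2432 lower, and quantile normalization 2774 lower; scaling that centres the samples otherwise moves the balance by construction. Against sensitive tumors, leaving out 1 mouse gave 675 to 1594 genes higher and 690 to 1977 lower: 890 and 690 without mouse 6-4, 675 and 799 without 6-5, and 997 and 1121 without 6-6, which leaves 2 sensitive mice. Neighbours called higher than vehicle made up 19.1% within 0.25 Mb and 15.9% among the 3 tested genes on either side, and 16.1% and 13.8% higher than sensitive; without genes that overlap a member, a choice made after seeing the data, 17.6% and 15.6%. The cause of these shifts was not tested.

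A fit of the 26 libraries with the library letter as a replicate block called 1614 genes higher and 4696 lower against vehicle, and 1559 and 1909 against sensitive tumors; without the block the counts were 1618 and 4713, and 1575 and 1947. The letter is shared by all mice and pairs no mice.

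Depth is unknown, the sensitive group has 3 mice, and all tumors come from 1 cell line.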
